A study of Mus musculus with 8 samples.

Results

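The data concern mouse primary keratinocytes, the epithelial cells of the epidermis grown in culture, compared between untreated cells and cells collected 2, 3 and 4 hours after tamoxifen. The 3 arrays titled 120, 180 and 240 min after tamoxifen were set against the 2 arrays titled untreated, which gives 5 of the 8 arrays of the series. The other 3 arrays, at 20, 40 and 60 min, entered the model for its estimate of spread and are given beside the late values. According to the labels, every culture, untreated ones included, had been infected with an empty retrovirus, so each comparison is between cells that carry the same control vector. Strain, animal age, tamoxifen dose and vehicle are not stated in the labels used here. One general description, the same for each sample, names tamoxifen even for the untreated arrays; groups here come from the titles. Each time after tamoxifen is a single array, and the labels name no separate cultures or animals, so a p-value reflects how much these arrays scatter, and that scatter may be technical. No array of cells kept for the same 2 to 4 hours without tamoxifen was analysed here, so time in culture, handling and tamoxifen cannot be told apart.

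Tamoxifen is a ligand of estrogen receptors that acts as an antagonist or a partial agonist depending on the tissue, and it is widely used in mice to switch on proteins fused to a mutated estrogen receptor. An empty vector carries no such fusion protein. Besides the estrogen receptor, tamoxifen is known to bind sterol-processing proteins, to accumulate in lysosomes and to be cleared by cytochrome P450 enzymes. A response over the first hours would be read in early growth and stress genes, in inflammatory and TGF-beta targets, and in sterol and drug-handling genes, which keratinocytes use in wound repair and barrier formation.

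Each array measured 22690 probe sets on an Affymetrix platform, and 14538 probe sets with 1 gene symbol, representing 9294 genes, passed a filter that left out the 30% of lowest mean. Values are log2(intensity + 16) of the deposited intensities, whose medians lay between 192 and 198 across the arrays. The label of the cells was checked against their own genes: 13 of 13 keratinocyte-defining genes with 1 symbol passed the filter, among them Krt5 and Krt14, the keratins of basal keratinocytes. Krt14 read 14.27 and 14.29 untreated and 14.27, 14.29 and 14.32 at the late times. Krt5 read 14.07 and 14.11 and then 14.06, 14.10 and 14.15. None of the 13 held a difference by the rule below, nor did any of the 17 measured genes of keratinocyte differentiation. With arrays centred on their medians 1 of the 13 held higher. Only 7.52% of all genes held in either direction, so nothing about stability is read from lists this short. In a culture measured as a whole, fewer cells of a type and less RNA per cell cannot be told apart.

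A probe set was counted as holding when all 3 late values lay on the same side of both untreated values and the smallest distance between a late value and the nearer untreated value, called the margin, exceeded the gap between the 2 untreated arrays. No probe set passed limma at a Benjamini-Hochberg adjusted p under 0.05, which is 0% of the 14538 tested. The smallest adjusted p was 0.0727, for a probe set of Npn2, and the next smallest was 0.9998. At an unadjusted p under 0.05 there were 468 probe sets, 186 higher (1.28%) and 282 lower (1.94%) in the late arrays. Without overlap between late and untreated values, 1370 probe sets lay higher (9.42%) and 1217 lower (8.37%). Of these, 585 held higher (4.02%) and 536 held lower (3.69%), together 1121 probe sets of 1045 genes. When each array was centred on its own median, the split was 779 higher and 412 lower, so the share of higher among those that held was 65.4% in place of 52.2%. With 1 probe set per gene, 374 genes held higher (4.02%) and 325 lower (3.5%), 7.52% in either direction, which is the share to set beside the counts of list members below.

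The differences that held were small. The median margin was 0.05 on the log2 scale, 169 probe sets had a margin of at least 0.10 and 14 of at least 0.20. None lay 2-fold or more from both untreated arrays at all 3 times. Because the margin had to exceed the gap, the rule itself favours probe sets whose untreated arrays agree closely. The median untreated gap was 0.02 among probe sets that held and 0.08 among all that were tested. A margin of at least 0.25, which is 1.19-fold, was reached by 1 probe set that held higher (0.00688%), that of Npn2, and by 6 that held lower (0.0413%), those of Dbil5, Kcnd2, Marcksl1, Mocos, Ptprd and Mybph. Just outside this limit, the margins of Fosl2, Wee1 and Mavs were 0.20, 0.19 and 0.18 for higher values, and those of Gnat2, Zdhhc2 and Mogat2 were 0.24, 0.24 and 0.22 for lower values. Just inside, Npn2 had 0.68, and Mybph, Ptprd and Mocos had 0.25, 0.26 and 0.27. The same rule applied at 20, 40 and 60 min, against the same untreated arrays, gave 974 probe sets higher (6.7%) and 1038 lower (7.14%), of which 13 (0.0894%) and 30 (0.206%) had a margin of at least 0.25.

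**Figure D1:**
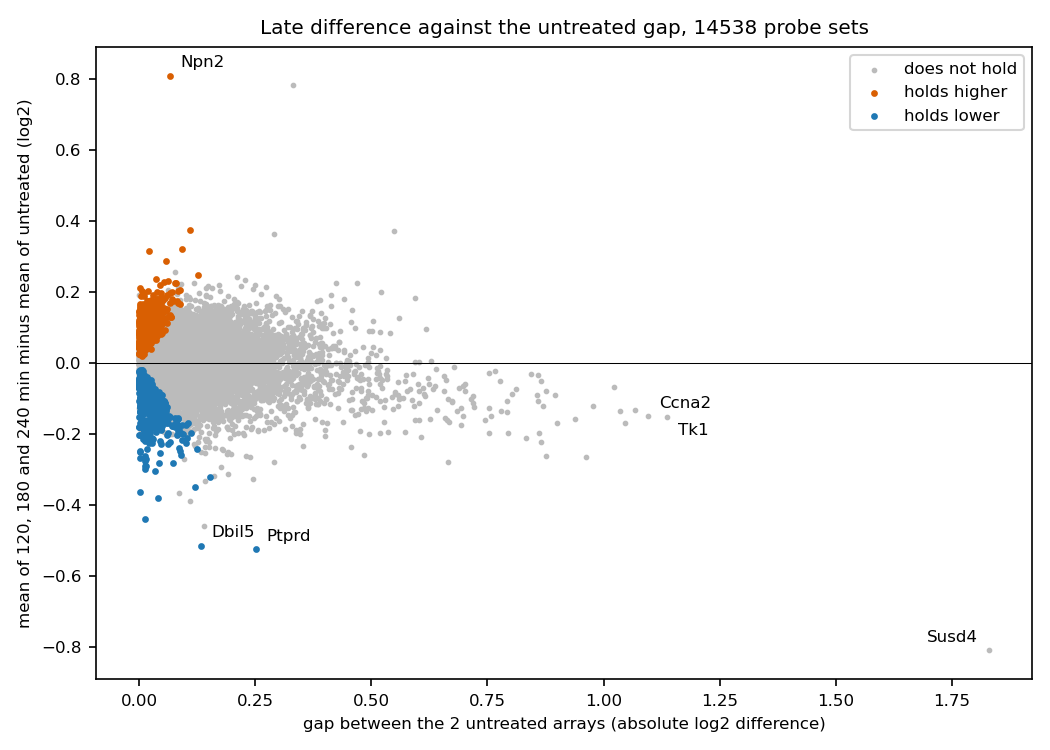
Mean of the 120, 180 and 240 min arrays minus the mean of the untreated arrays (vertical, log2) against the absolute gap between the 2 untreated arrays (horizontal, log2) for 14538 probe sets; orange points held higher, blue points held lower and grey points did not hold. Npn2 lies alone at the top left, while Susd4, Tk1 and Ccna2 lie far to the right because the untreated arrays differ there.

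The clearest difference belonged to a probe set annotated as Npn2. It read 6.97 and 6.90 in the 2 untreated arrays, 6.91, 7.15 and 7.01 at 20, 40 and 60 min, and 7.65, 7.89 and 7.69 at 120, 180 and 240 min. The late arrays were all above every other array, and the 40 min array was the highest of the rest. The late difference was 0.81 ± 0.09 (SE), 1.75-fold on this scale, with an unadjusted limma p of 5.00e-06, and the adjusted p of 0.0727 missed the threshold. The untreated values lay under the brightness limit of 7.04, so the probe set entered the tests through its late values, and a fold from so dim a start is understated on this scale. The second Npn2 probe set did not show it, with 7.20 and 7.22 untreated and 7.09, 7.28 and 7.17 late, a difference of -0.03 ± 0.07. The annotation's Entrez identifier for Npn2 matched no entry of the RefSeq gene table used here. The same letters are listed there as a synonym of Nrp2, neuropilin 2, under another identifier, so no function is given for this probe set.

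Fosl2 encodes Fra-2, a subunit of the AP-1 transcription factor. It lay at 7.46 and 7.55 untreated, at 7.56, 7.38 and 8.16 over the first hour and at 7.88, 7.76 and 7.85 late. The 60 min array was the highest, the late arrays followed, and the 20 and 40 min arrays lay near or below the untreated ones. Its late difference was 0.32 ± 0.18 (SE).

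Wee1, the kinase that keeps the mitotic kinase CDK1 inactive, had a similar order. Its values were 7.68 and 7.57 untreated, 7.45, 7.63 and 8.13 over the first hour and 8.01, 7.87 and 8.13 late, a difference of 0.38 ± 0.17 (SE). Again the 60 min array stood with the late arrays and the 20 and 40 min arrays with the untreated ones. A brighter Wee1 probe set gave 8.92, 8.84 and 9.06 late against 9.16 and 8.91 untreated, with overlap, so the probe sets disagree.

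Id2, an inhibitor of basic helix-loop-helix transcription factors and a target of BMP and TGF-beta signalling, held on both of its probe sets above the filter. On the first it read 9.67 and 9.75 untreated, 9.82, 9.93 and 10.03 over the first hour and 9.93, 9.96 and 9.92 late, and on the second 9.34 and 9.41, 9.50, 9.49 and 9.75 and 9.53, 9.60 and 9.67. All 6 tamoxifen arrays were above both untreated arrays on each. The late differences were 0.22 ± 0.06 and 0.22 ± 0.08 (SE). The remaining Id2 probe set was too dim to be tested.

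Pmepa1, a TGF-beta-induced membrane protein that dampens SMAD signalling, was higher at the late times alone. It read 9.29 and 9.33 untreated, 9.20, 9.25 and 9.20 over the first hour and 9.66, 9.52 and 9.47 late. The first-hour values lay below both untreated values and the late ones above, with the 120 min array highest. The late difference was 0.24 ± 0.06 (SE). A second probe set also held, at 0.20, and the dimmest of the 3 gave 0.09 with overlap.

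Mavs, the mitochondrial adaptor of RIG-I-like antiviral sensors, had the smallest unadjusted p on the higher side after Npn2. It read 8.30 and 8.24 untreated, 8.48, 8.51 and 8.45 over the first hour and 8.58, 8.49 and 8.61 late, a difference of 0.29 ± 0.06 (SE). Every tamoxifen array was above both untreated arrays on this probe set, whose name marks it as one that may bind several transcripts. The same mark is on probe sets given below that held for Marcksl1 (the dim one), Tnfaip2, Lats2, Kif2c and Aldoa (its brightest). The other Mavs probe set differed by 0.08 ± 0.07 and overlapped.

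C9orf72, a regulator of endosomal traffic and autophagy, read 7.92 and 7.80 untreated and 8.11, 8.10 and 8.12 late, with 8.005, 7.97 and 8.06 in between, a late difference of 0.25 ± 0.06 (SE). Its 3 late arrays agreed more closely than the 2 untreated ones. Cldn4, a tight-junction claudin, read 11.74 and 11.68 untreated, 11.87, 11.90 and 12.20 over the first hour and 11.94, 11.97 and 11.90 late, a difference of 0.23 ± 0.09 (SE). The 60 min array was again the highest for Cldn4, and all 6 tamoxifen arrays exceeded both untreated arrays. Ppbp, a CXC chemokine, differed by 0.19 ± 0.09, from 8.10 and 8.09 to 8.34, 8.26 and 8.25, also with its highest value, 8.55, at 60 min.

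Tulp3, a tubby-family protein of ciliary transport, held higher at 0.20 on one probe set while its other, dimmer one lay at -0.16, lower without overlap. Wdr1, which speeds actin disassembly together with cofilin, held at 0.20 on one of 3 probe sets, and the others gave 0.05 and 0.07 with overlap. Rbm42, an RNA-binding protein, held on both of its brighter probe sets, at 0.22 and 0.07, and its dimmest gave -0.10. Fam222b held at 0.17 on one probe set and differed by 0.02 on the other. Probe sets of 1 gene thus did not always move alike.

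Mitf, the transcription factor that directs melanocyte genes, read 9.22 and 9.24 untreated, 9.33, 9.33 and 9.53 over the first hour and 9.40, 9.50 and 9.39 late, a difference of 0.20 ± 0.07 (SE). Every tamoxifen array was above both untreated arrays. Of 7 melanocyte markers, 6 were tested: Tyr, Dct, Pmel, Tyrp1 and Sox10 overlapped with untreated on their brightest probe sets, and Mitf held. Over all genes 7.52% held in either direction. Tyrp1, another enzyme of melanin synthesis, held higher on its 2 other probe sets, at 0.13 and 0.08, while its brightest gave -0.001. A dimmer Mitf probe set gave 0.07 with overlap. Averaged over the 6, the level was 10.07 and 10.04 untreated and 10.06, 10.16 and 10.15 late. Dct, a melanin-synthesis enzyme, was bright throughout, at 11.96 and 11.84 untreated and 11.86, 11.99 and 11.97 late. Whether melanocytes in the culture had a part in the Mitf value was not tested.

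**Figure D2:**
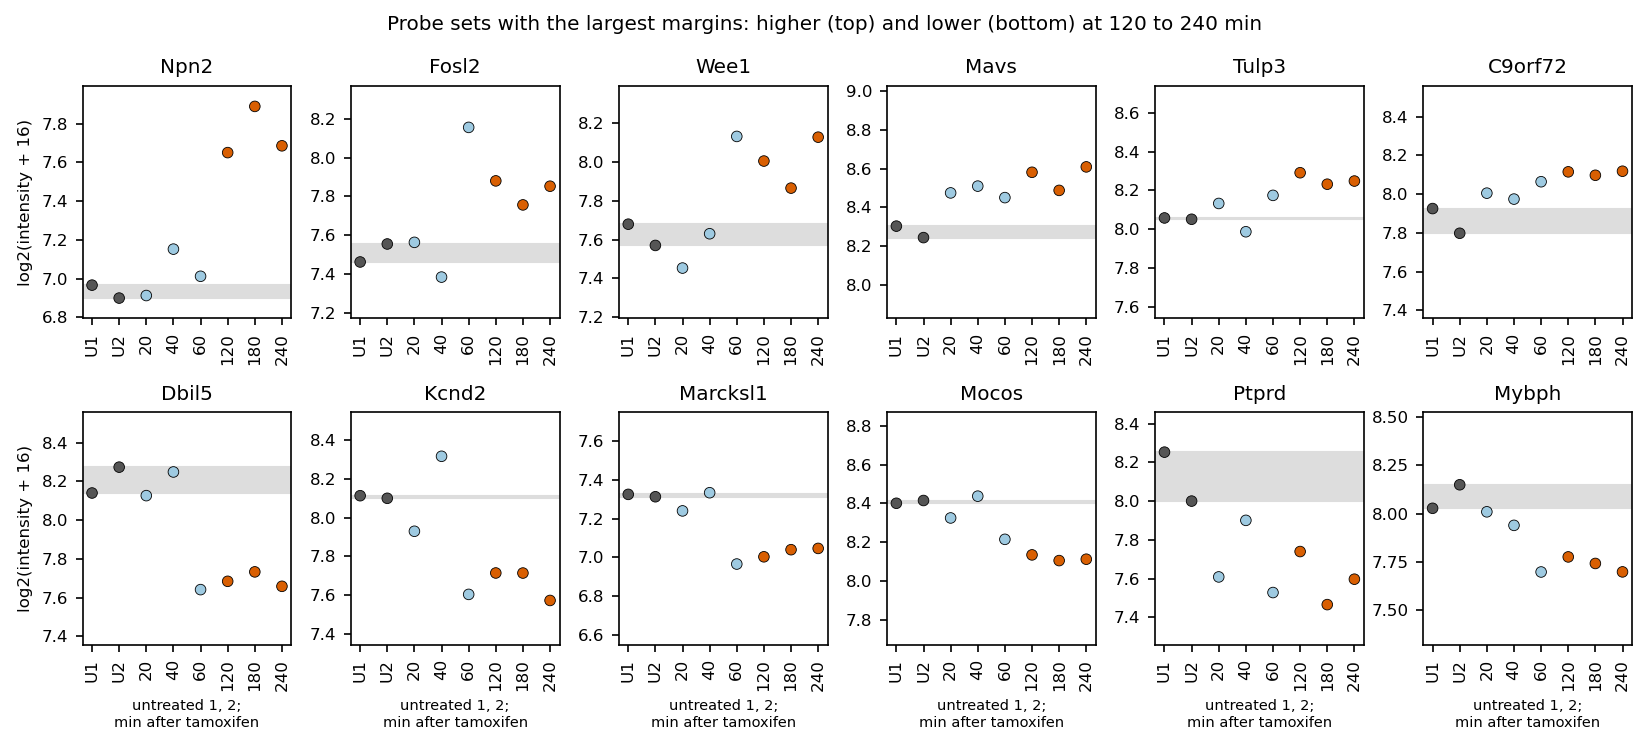
Values of log2(intensity + 16) on all 8 arrays (untreated 1 and 2, then minutes after tamoxifen) for the 6 genes with the largest margins in each direction; the grey band spans the untreated arrays, orange points are the late arrays, blue points the first hour, and all panels span the same range of log2 units. The late points of all 12 genes lie outside the grey band, and in Fosl2, Wee1, Dbil5, Kcnd2, Marcksl1, Mybph and Ptprd the 60 min point lies with them.

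The largest margin on the lower side was that of Dbil5. Dbil5, a testis relative of the diazepam-binding inhibitor, read 8.14 and 8.27 untreated, 8.13, 8.25 and 7.64 over the first hour and 7.68, 7.73 and 7.66 late. The late arrays and the 60 min array lay together below the others, with no overlap. The late difference was -0.51 ± 0.15 (SE).

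Kcnd2, a voltage-gated potassium channel subunit, read 8.11 and 8.10 untreated, 7.93, 8.32 and 7.60 over the first hour and 7.71, 7.71 and 7.57 late, a difference of -0.44 ± 0.16 (SE). The 40 min array was the highest and the 60 min array among the lowest. Ptprd, a receptor tyrosine phosphatase, read 8.25 and 7.9997 untreated, 7.61, 7.90 and 7.53 and 7.74, 7.47 and 7.60, a difference of -0.53 ± 0.12 (SE). All 6 tamoxifen arrays lay below both untreated arrays, and the untreated gap of 0.25 was only just smaller than the margin of 0.26. Their other probe sets were below the brightness limit and were not tested.

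Mocos, the enzyme that adds sulfur to the molybdenum cofactor of xanthine dehydrogenase and aldehyde oxidase, had late values that agreed closely. It read 8.40 and 8.41 untreated, 8.32, 8.44 and 8.21 over the first hour and 8.13, 8.10 and 8.11 late, a difference of -0.29 ± 0.07 (SE). The late arrays lay below all the others. Mybph, myosin-binding protein H, read 8.03 and 8.15 untreated, 8.01, 7.94 and 7.70 and 7.78, 7.74 and 7.70, with the late arrays and the 60 min array lowest, and differed by -0.35 ± 0.09 (SE).

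Marcksl1, an actin-associated substrate of protein kinase C, held lower on a dim probe set, from 7.32 and 7.31 to 7.003, 7.04 and 7.05, a difference of -0.29 ± 0.09 (SE). Its bright probe sets did not follow: one held higher at 0.07 and the other gave 0.11 with overlap. A probe set below the brightness limit, which was not tested, lay lower too, from 6.90 and 6.87 to 6.73, 6.71 and 6.74, so the dim and the bright probe sets of Marcksl1 disagree.

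Zdhhc2, a palmitoyltransferase, read 7.46 and 7.45 untreated, 7.18, 7.30 and 7.11 over the first hour and 7.21, 7.16 and 7.18 late, a difference of -0.28 ± 0.06 (SE). B4galt2, a galactosyltransferase of glycan synthesis, held on both probe sets, at -0.27 ± 0.08 and -0.17 ± 0.06 (SE), the first from 8.35 and 8.35 to 8.03, 8.09 and 8.13. All tamoxifen arrays lay below both untreated arrays for both genes. Gnat2, the transducin subunit of cone photoreceptors, differed by -0.31 ± 0.16, Mogat2, an acyltransferase of triglyceride synthesis, by -0.25 ± 0.06, and the nudix hydrolase relative Nudt16l2 by -0.38 ± 0.10 (SE). Gnat2 was higher than untreated at 20 and 40 min, at 7.96 and 7.97, and at 7.34 at 60 min.

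In Dbil5, Kcnd2, Marcksl1, Gnat2, Fosl2 and Wee1, then, the 60 min array took values like those of the late arrays. The labels give no batch that would place these arrays together, and batch and time cannot be told apart here.

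Siglec1 and Cd209c, lectins of macrophages and dendritic cells, were among the smallest p-values on the lower side. Siglec1 read 7.20 and 7.35 untreated and 7.01, 6.95 and 6.90 late, a difference of -0.32 ± 0.06 (SE), and Cd209c read 7.37 and 7.41 and 7.18, 7.11 and 7.03, a difference of -0.28 ± 0.05 (SE). Both lay near the brightness limit of 7.04. The 6 tamoxifen arrays of Siglec1 averaged 7.01, under that limit, so it entered the tests through its untreated values, and a second Siglec1 probe set overlapped at -0.05. Of 12 leukocyte and Langerhans cell markers, 7 passed the filter, to be read beside the 7.52% of all genes that held in either direction. Fcer1g, the shared gamma chain of Fc receptors, held lower, at 7.15 and 7.13 untreated and 6.98, 7.08 and 7.02 late, and the other 6, which include the class II genes H2-Aa, H2-Ab1 and H2-Eb1, did not hold. Fcer1g too passed the filter only through its untreated values, its tamoxifen arrays averaging 7.03, and it did not hold after quantile normalization or median centring. The mean of the 7 was 7.56 and 7.66 untreated and 7.62, 7.58 and 7.52 at 120, 180 and 240 min. Ptprc, Cd207, Cd74, Cd52 and Itgam were dimmer than the filter. Whether leukocytes had a part in these values was not tested.

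Of 22 genes listed for NF-kB, the transcription factor family that drives cytokine and chemokine genes, 13 were tested: 3 held lower, Cxcl1, Ccl20 and Tnfaip2, and 0 held higher, against 3.5% and 4.02% of all genes. The median difference of the 13 was −0.09, beside 0.01 over all genes tested, and their medians at 120, 180 and 240 min were −0.06, −0.10 and −0.12. Cxcl1, a neutrophil-attracting chemokine, read 8.65 and 8.65 untreated, 8.25, 8.12 and 7.74 over the first hour and 8.43, 8.40 and 8.38 late. The untreated arrays agreed closely, the 60 min array was the lowest, and the late arrays lay between the first-hour and the untreated ones. The late difference was -0.25 ± 0.12 (SE).

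Ccl20, a chemokine that draws dendritic and T cells, read 7.66 and 7.70 untreated, 7.49, 7.48 and 7.44 over the first hour and 7.52, 7.49 and 7.48 late, a difference of -0.18 ± 0.05 (SE). All 6 tamoxifen arrays lay below both untreated arrays. Tnfaip2, a TNF-induced gene, read 7.84 and 7.86, 7.89, 7.89 and 8.08 and 7.74, 7.66 and 7.74, lower late but higher over the first hour, with a late difference of -0.13 ± 0.07 (SE). Its other probe set overlapped. Nfkbia, the inhibitor that NF-kB itself induces, gave -0.11, and Tnf and Il1b gave -0.09 and -0.06, all without holding. Relb and Nfkb2 gave 0.04 and 0.004, the only tested members with a higher late mean. Cxcl5 and Icam1 lay above both untreated arrays at 120 min and below both at 240 min.

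The promoters of the 3 held NF-kB genes are shown because they share a match to the NF-kB motif, which is in capitals. The windows run from 250 bases before to 50 after the start site in RefSeq annotation of GRCm38.p6, 5′ to 3′ on the gene's plus strand, at chr5:90890995-90891294 for Cxcl1, chr1:83116516-83116815 for Ccl20 and chr12:111442411-111442710 for Tnfaip2.
Cxcl1: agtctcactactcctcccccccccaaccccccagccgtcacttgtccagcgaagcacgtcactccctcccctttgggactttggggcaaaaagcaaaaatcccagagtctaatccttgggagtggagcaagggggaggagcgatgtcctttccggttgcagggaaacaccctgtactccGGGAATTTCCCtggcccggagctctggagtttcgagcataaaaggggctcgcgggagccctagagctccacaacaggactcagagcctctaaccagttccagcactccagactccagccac
Ccl20: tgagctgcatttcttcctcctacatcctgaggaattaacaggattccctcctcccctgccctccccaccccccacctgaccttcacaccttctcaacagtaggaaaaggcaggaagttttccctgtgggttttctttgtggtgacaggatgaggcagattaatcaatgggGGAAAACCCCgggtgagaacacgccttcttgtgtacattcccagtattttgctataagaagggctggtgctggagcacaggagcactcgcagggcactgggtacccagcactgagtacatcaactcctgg
Tnfaip2: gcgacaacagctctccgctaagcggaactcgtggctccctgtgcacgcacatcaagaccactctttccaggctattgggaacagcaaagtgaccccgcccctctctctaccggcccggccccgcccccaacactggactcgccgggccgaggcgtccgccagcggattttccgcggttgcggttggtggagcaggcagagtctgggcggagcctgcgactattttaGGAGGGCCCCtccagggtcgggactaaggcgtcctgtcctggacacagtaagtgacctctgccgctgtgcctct
The motif was searched on both strands, and 2 overlapping matches make up the capitals of Cxcl1. It was present in 8.46% of all 32851 windows of 300 bases and in 10.1% of those of genes tested, 10.9% where the gene held higher and 11.4% where it held lower. Of the 13 inflammatory genes tested, 10 had a window, and 5 of those held the motif: Nfkb2 and Nfkbia besides the 3 shown. A match is a run of letters and shows no binding.

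Of 16 TGF-beta and BMP targets tested, 4 held higher, Pmepa1, Ccn2, Id2 and Skil, and 0 held lower, against 4.02% and 3.5% of all genes. Higher with an unadjusted p under 0.05 were 3 of the 16, and 126 of all 9294 genes. Their median difference was 0.08, and at 120, 180 and 240 min the medians were 0.15, 0.04 and 0.06. Skil, which encodes the SMAD co-repressor SnoN and is itself induced by TGF-beta, read 10.07 and 10.09 untreated, 10.07, 10.11 and 10.13 over the first hour and 10.25, 10.21 and 10.26 late, a difference of 0.16 ± 0.05 (SE). Its late arrays lay above all the others. Ccn2, connective tissue growth factor, read 8.85 and 8.90, then 9.27, 9.45 and 9.90 over the first hour and 9.22, 9.07 and 9.02 late, so that the highest value was at 60 min and the late ones descended towards untreated. Its late difference was 0.23 ± 0.15 (SE).

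Members that did not hold included Smad7, the inhibitory SMAD, at 0.11, Id3 at 0.13, Id1 at 0.01 and the ligand Tgfb1 at -0.17. Fibroblast markers, 12 tested, moved in part with this list: their medians were 0.12, 0.04 and −0.03 at the 3 times, the mean over the 12 was 8.14 and 8.21 untreated and 8.30, 8.20 and 8.15 late, and 0 held in either direction. The part of fibroblasts in the TGF-beta values was not tested.

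**Figure D3:**
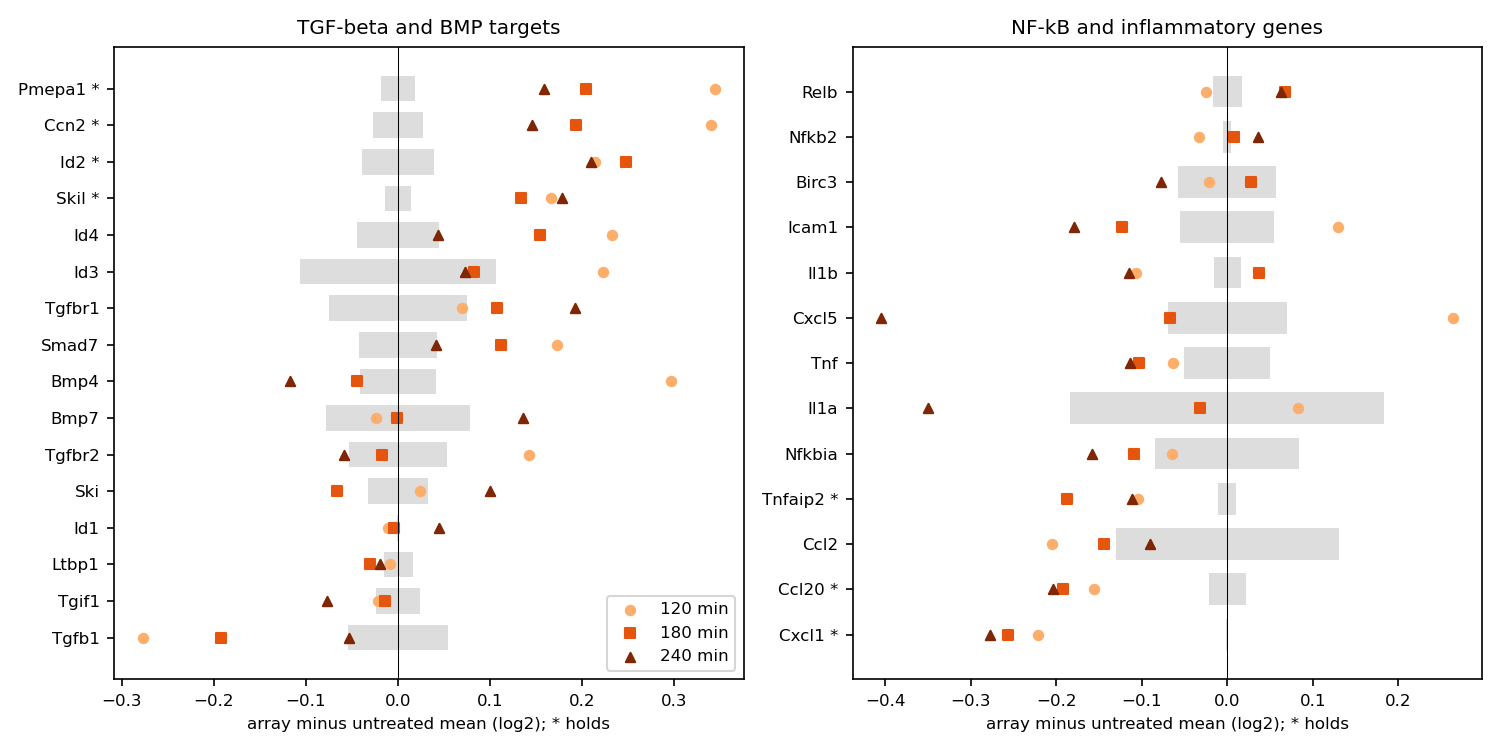
Each tested member of the TGF-beta and BMP list (left, 16 genes) and of the NF-kB list (right, 13 genes) at 120, 180 and 240 min as the array minus the untreated mean (log2); grey bars show the gap between the 2 untreated arrays centred on 0, and stars mark members that held. The 4 starred genes on the left lie to the right of 0 at all 3 times, and the 3 starred genes on the right lie to the left.

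Of 14 Wnt genes tested, 3 held higher, the frizzled receptors Fzd1, Fzd6 and Fzd7, 0 held lower, against 4.02% and 3.5% of all genes, and the median was 0.06. Fzd7 read 8.81 and 8.73 untreated, 8.83, 8.91 and 8.98 over the first hour and 8.92, 8.88 and 9.03 late, a difference of 0.17 ± 0.07 (SE). Fzd1 differed by 0.12 ± 0.06 and Fzd6 by 0.11 ± 0.06 (SE), and a second Fzd6 probe set gave 0.001 with overlap. With arrays centred on their medians, and likewise after quantile normalization, 2 of the 14 held.

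Of 17 targets of YAP and SRF, regulators that respond to cell shape and the actin skeleton, 3 held higher, Ccn2, Tead4 and Lats2, and 0 lower, with a median of 0.05. These counts and the next stand against 4.02% higher and 3.5% lower over all genes. Tead4, a DNA-binding partner of YAP, differed by 0.13 ± 0.07, and Lats2, a kinase that inhibits YAP, by 0.09 ± 0.06 (SE). Their other tested probe sets did not hold, at 0.08 for Tead4 and 0.08 and 0.07 for Lats2. Ccn2 stands in this list and in the TGF-beta list. Of 13 heat-shock genes, 3 held higher, the co-chaperones Dnaja1, Bag3 and Dnaja3, at 0.08, 0.10 and 0.14, and the median was 0.03. The other tested probe sets overlapped, at 0.03 for Dnaja1 and -0.01 and 0.02 for Dnaja3. Of 12 NRF2 and glutathione genes, Gclm and Gclc held higher, which encode both subunits of the rate-limiting enzyme of glutathione synthesis. Gclc read 9.61 and 9.58 untreated and 9.78, 9.65 and 9.79 late, a difference of 0.15 ± 0.06, and Gclm differed by 0.09 ± 0.05 (SE). A second Gclc probe set gave -0.002 with overlap.

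The next lists hold genes of processes that tamoxifen is known to touch, and their counts stand beside the 7.52% of all genes that held in either direction. Of 11 estrogen receptor genes and targets tested, Nrip1, a receptor co-repressor, held higher at 0.10 ± 0.06 (SE), from 9.23 and 9.23 untreated to 9.27, 9.29 and 9.43 late, and 0 held lower. Its second probe set gave 0.05 with overlap. Tff1, a trefoil peptide that estrogen induces in breast cells, lay lower without overlap, from 8.65 and 8.80 to 8.55, 8.47 and 8.50, a difference of -0.22 ± 0.06 (SE), but its margin of 0.10 was smaller than the untreated gap of 0.15. Of 11 drug-metabolism genes, the drug pump Abcb1b held lower at -0.12 ± 0.10 (SE) and 0 held higher. Of 17 lysosome and autophagy genes, Ulk1, the kinase that starts autophagy, held higher at 0.13 ± 0.05 and Hexa, a lysosomal hexosaminidase, held lower at -0.08 ± 0.05 (SE). A second Ulk1 probe set gave -0.01 with overlap.

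None of 21 tested genes of sterol synthesis and uptake held. The medians of this list were −0.06, −0.05 and 0.11 at 120, 180 and 240 min, while untreated array 2 minus untreated array 1 gave −0.18. Hmgcs1, which makes the precursor of mevalonate, read 11.31 and 10.98 untreated and 10.99, 11.01 and 11.45 late, and Sqle, squalene epoxidase, read 10.39 and 10.03 and 9.99, 10.06 and 10.48. The 120 and 180 min arrays thus lay near untreated array 2 and the 240 min array near or above untreated array 1. In 15 of the 21 genes untreated array 2 was the lower, and in 14 the 240 min array was the highest of the late arrays.

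Cell-cycle genes showed the same order more widely. The G2 and M phase list, 29 genes tested, had medians of −0.41, −0.28 and 0.30 at 120, 180 and 240 min against a difference of −0.79 between the untreated arrays. Ccna2, cyclin A2, read 10.28 and 9.18 untreated and 9.19, 9.31 and 10.23 late, and Plk1, a mitotic kinase, read 10.03 and 8.97 and 8.99, 9.12 and 9.99. Tk1, Mki67 and Aspm also had untreated gaps above 1, of 1.14, 1.05 and 1.02. Of the 29 genes Kif2c, a microtubule-depolymerising kinesin, held lower at -0.09 ± 0.06 (SE) on its brightest probe set, against 3.5% of all genes. A dimmer Kif2c probe set overlapped, with a gap of 0.62. The widest gap of all was in Susd4, a complement regulator, at 8.18 and 10.02 in the untreated arrays and 8.46, 8.23 and 8.17 late. Untreated array 2 stood alone there, so the size of a late difference in these genes depends on which untreated array is used.

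**Figure D4:**
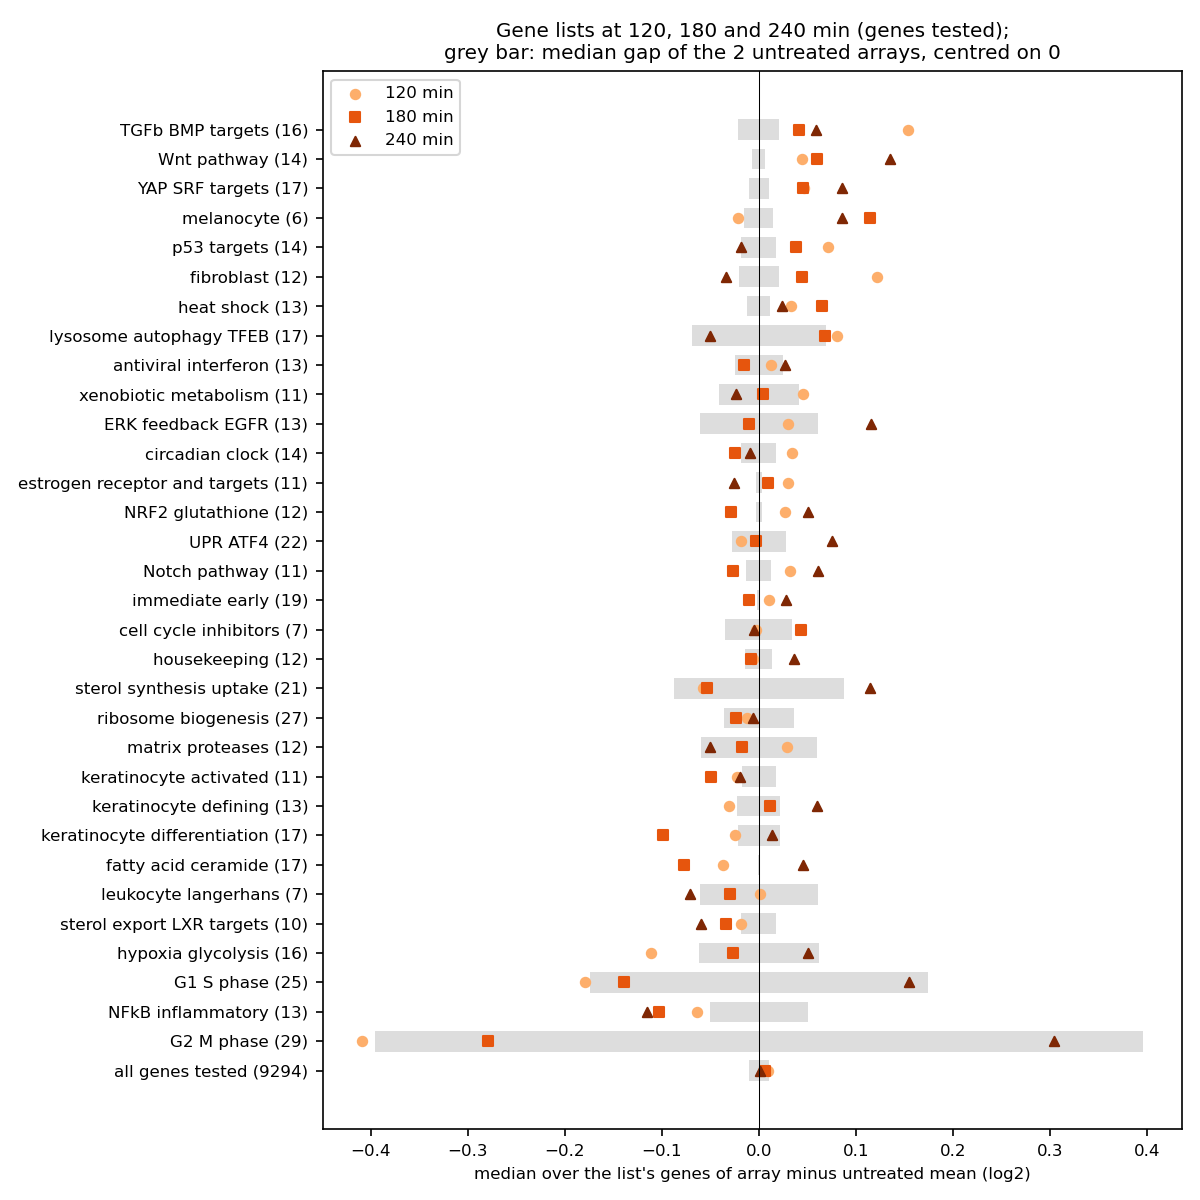
Median over each gene list of the 120, 180 and 240 min arrays minus the untreated mean (log2). Brackets give the number of genes tested, and lists with at least 6 are shown. The grey bar, centred on 0, has the width of the median signed difference between the untreated arrays. Differences of opposite sign cancel in that median, so a bar can be narrower than the gaps of single genes. A list outside its bar may therefore still lie within those gaps. The TGF-beta, Wnt, YAP and heat-shock lists lie to the right of their bars at all 3 times. The NF-kB, activated keratinocyte and sterol export lists lie to the left. The activated keratinocyte list at 240 min and the sterol export list at 120 min are only just outside their bars. The G2 and M phase list spreads from −0.41 to 0.30.

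The counts of this paragraph stand beside 4.02% of all genes that held higher and 3.5% that held lower. Of 14 clock genes, Cry2 and Per3 held higher at 0.09 and 0.07, and Nr1d1 held lower at -0.05. Of 27 ribosome biogenesis genes, Pes1 held higher at 0.06, and Tsr1 and Gnl3 held lower at -0.15 and -0.10. Of 16 hypoxia and glycolysis genes, Aldoa and Fam162a held lower, at -0.03 and -0.15, Aldoa with a margin of only 0.004. Gadd45a, a growth-arrest gene, held higher among 14 p53 targets at 0.12, with first-hour values of 8.35, 8.47 and 8.59 above its late values of 8.30, 8.10 and 8.06. Elovl6, a fatty acid elongase, held lower among 17 genes of fatty acid and ceramide synthesis at -0.20, with a margin of 0.01. Their other tested probe sets overlapped for Elovl6 and Per3, at -0.13 and 0.10, and of 3 others of Aldoa 1 held lower.

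Mmp3, stromelysin 1, a matrix protease of wound keratinocytes and fibroblasts, held lower and was counted both among 11 genes of activated keratinocytes and among 12 matrix proteases. It read 7.95 and 8.04 untreated, 7.78, 7.70 and 7.76 over the first hour and 7.76, 7.69 and 7.79 late, a difference of -0.25 ± 0.06 (SE). All 6 tamoxifen arrays lay below both untreated arrays. Mavs was the single gene to hold among 13 antiviral genes. Beside the 7.52% of all genes that held, nothing is read from a short list in which no gene held. In 15 of the 35 lists no gene held, among them the 19 immediate-early genes, 13 of ERK feedback and EGF receptor signalling, 11 of the Notch pathway, 22 of the unfolded protein response, 25 of G1 and S phase, 10 of sterol export, 7 cell-cycle inhibitors and 12 housekeeping genes. Markers of endothelial, adipocyte and muscle cells had 1, 2 and 4 genes tested, and 0 held.

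Several genes were read by more than 1 probe set, which gives a second look at each difference on the same RNA. Each probe set that held was paired with every other tested probe set of its gene, which gave 1265 pairs. In 823 pairs (65.1%) the other probe set differed in the same direction, and in 132 (10.4%) it also held in it. Probe sets of 1 gene that both held were counted from each side. Over all probe sets tested, 4.02% held higher and 3.69% held lower. There were 37 genes with at least 2 probe sets that held higher and 23 with at least 2 that held lower, and 13 genes had probe sets that held in opposite directions. Besides Id2 and Pmepa1, chosen here after their values were seen, Ddx6, an RNA helicase of messenger RNA decay, held higher on 2 of 3 probe sets, at 0.18 ± 0.06 and 0.12 ± 0.07 (SE). On the second of these it read 11.26 and 11.27 untreated and 11.39, 11.37 and 11.38 late, with 11.51 at 60 min. Vamp1, a vesicle fusion protein, held lower on both of its probe sets, at -0.23 ± 0.07 and -0.16 ± 0.05 (SE). The first read 7.95 and 7.91 untreated and 7.73, 7.63 and 7.74 late, and the second 7.28 and 7.22 and 7.10, 7.09 and 7.08, without overlap on either.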

How the data were processed

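Total RNA from mouse primary keratinocytes was labelled as biotinylated cRNA and hybridised to Affymetrix arrays, per the labels' protocols. The deposited values are linear intensities per probe set. The authors' probe summary and array scaling are not given in the sources used here. The deposited intensities were used without further scaling as log2(intensity + 16), so differences of dim probe sets are understated. Genes were named from the platform annotation of the probe sets: leaving out 64 controls, 20380 had 1 symbol, 691 several and 1555 none here. Of the first, 20351 matched RefSeq genes (GRCm38.p6) by Entrez identifier, with 0 symbols that differed. Probe sets whose mean was among the lowest 30% (below 7.04) were left out.

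limma 3.58.1 in R 4.3.3 was fitted to all 8 arrays in 3 windows (untreated, 20 to 60 min, 120 to 240 min), with 5 residual degrees of freedom, and p-values were adjusted over all 14538 probe sets. The spread within a window holds differences between times. The script was tested on simulated data. Gene lists were described by counts and medians over the brightest probe set per gene. Precision is limited by the number of arrays.

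Genes were named by rule: the 12 largest margins and the 5 smallest p in each direction, list members that held or had the smallest p, the 3 nearest the margin limit on each side, and the 6 widest untreated gaps. Some further list members were given beside these. The arrays, lists and rules were chosen with earlier results of these data known. Alternatives were other pseudocounts, scalings and filters, 1 probe set per gene, leaving out each array, only the 5 arrays compared, array weights, a G2 and M phase covariate and other limits on the margin. Promoter windows came from a RefSeq-derived table. No probe set with several symbols was named.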

Additional observations from a re-analysis of the deposited data

Results flagged for a closer look

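In 7 named probe sets the late arrays all lay on one side of both untreated arrays and the first-hour arrays all on the other. They were looked for among named probe sets alone, many of which were picked by their late values. The share over all probe sets tested was not counted, so nothing is read from their number. The test of late against first-hour arrays in the same limma fit passed for 0 probe sets, with a smallest adjusted p of 0.0794 over all probe sets. For Pmepa1, the late difference from untreated was 0.24 and the first-hour one -0.09 (adjusted p of late against first hour 0.171). Fzd6, a frizzled receptor, gave 0.11 and -0.24 (0.171 by the same limma test), and Ulk1, the autophagy kinase, gave 0.13 and -0.14 (0.171), while its second probe set gave -0.01 late with overlap. Srxn1, sulfiredoxin of the NRF2 list, gave 0.13 and -0.09 (adjusted p 0.188). Its late values of 8.79, 8.66 and 8.60 did not hold, against 8.53 and 8.57 untreated, and its other tested probe sets gave -0.06, 0.10 and -0.09.

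The last 3 ran the other way, lower late and higher over the first hour. Ivl, involucrin of the cornified envelope, read 8.92 and 8.97 untreated, 9.03, 9.14 and 9.08 over the first hour and 8.67, 8.59 and 8.91 late, with a late difference of -0.22 and a first-hour one of 0.14 (adjusted p 0.188 by the same limma test). Tnfaip2 gave -0.13 and 0.11 (0.188), and Gnl3, a nucleolar GTPase, gave -0.10 and 0.11 (0.188). Ivl did not hold, its margin being 0.01 against a gap of 0.05.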

How the results depend on the processing

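The count of probe sets that passed limma stayed 0 except in 3 alternatives. Without untreated array 1 it was 1, Susd4 (lower, adjusted p 0.00133); with limma array weights, whose estimate stopped before converging, it was 1, Npn2 (adjusted p 0.0149); with the G2 and M phase covariate it was 1, Npn2 (adjusted p 0.0139). The adjusted p of Npn2 ranged from 0.0139 to 0.964 over its alternatives, highest without untreated array 2, and with the dimmest 50% left out it was not tested. Probe sets at an unadjusted p under 0.05 were 468, and 770 without a filter, 249 with the dimmest 50% left out, 295 with 1 probe set per gene, 1446 with array weights, 841 with the covariate and 288 to 801 leaving out 1 array in turn (288 without 180 min, 801 without 240 min). Those that held higher and lower were 585 and 536; they were 819 and 862 without a filter, 438 and 274 with the dimmest 50% left out, 374 and 325 with 1 probe set per gene, 380 and 340 with a margin over 2 times the gap, 1370 and 1217 with no comparison to the gap, and 826 to 1206 and 761 to 980 without 1 late array, where fewer values have to lie outside. Those with a margin of at least 0.25 were 7, and 3 with a pseudocount of 64 (Npn2, Dbil5, Kcnd2) and 12 to 17 without 1 late array. Of the 1121 that held, 825 also held after quantile normalization and 749 after median centring. Under both scalings the TGF-beta list kept a count of 4 higher and the NF-kB list 3 lower; the Wnt list had 2 under each, the heat-shock list 2 and the YAP list 4 after quantile normalization. After median centring, no gene held lower in the drug-metabolism, leukocyte, fatty acid and G2 and M phase lists, and 1 each in the hypoxia and ribosome biogenesis lists. No count of those that hold can be made with 1 untreated array. No paired analysis was possible because the tamoxifen times have 1 array each.

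Of 77 named probe sets, 8 changed direction in some alternative, all with wide untreated gaps. Leaving out 1 array in turn, the late difference ranged from −0.58 to 0.44 for Aspm, −0.70 to 0.40 for Ccna2, −0.69 to 0.35 for Mki67, −0.67 to 0.40 for Plk1, −0.72 to 0.42 for Tk1, −0.21 to 0.15 for Sqle, −0.16 to 0.17 for Hmgcs1 and −1.73 to 0.11 for Susd4. With the G2 and M phase covariate it was 0.092 for Aspm, 0.031 for Ccna2, 0.0071 for Mki67 and 0.035 for Plk1. With the same covariate it was 0.029 for Tk1 and 0.036 for Sqle, and with array weights −0.11 for Hmgcs1. The covariate is the mean of the tested G2 and M phase genes, among them Aspm, Ccna2, Mki67 and Plk1. Their values with it are drawn towards 0 by construction and are no independent adjustment. The cause of the changes in direction was not tested.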

Other observations

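Some of the largest late differences did not hold, chosen here after their values were seen. On one Cd151 probe set, for a tetraspanin that binds laminin-receptor integrins, the values were 6.66 and 6.99 untreated, 6.98, 6.70 and 6.76 over the first hour and 8.02, 6.89 and 7.91 at 120, 180 and 240 min, so that the 120 and 240 min arrays lay far above and the 180 min array between the untreated ones. Its difference was 0.78 ± 0.28 (SE), and without the 180 min array its adjusted limma p was 0.111. All its other values lay under the brightness limit of 7.04, so it entered the tests only through the 120 and 240 min arrays. Rad1, a subunit of the DNA damage clamp, read 8.57 and 8.71 untreated and 8.49, 8.31 and 7.75 late, and Rbbp4, a histone-binding chaperone, read 9.49 and 9.61 and 9.53, 9.24 and 8.72. Ajuba, a LIM protein of cell junctions, read 10.95 and 11.04 and 11.005, 10.76 and 10.12. On these 3 probe sets the 240 min array was the lowest of all 8. Cd151 and Rbbp4 each had a brighter tested probe set, which is not given here, so these values do not stand for the genes. Txnip, a thioredoxin inhibitor, read 9.67 and 10.22 untreated and 10.66, 10.39 and 9.90 late, with its untreated arrays 0.55 apart.

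Promoter motifs were counted as a description, with no test. Windows of 300 bases were found for 7502 of the 9294 genes tested, for 303 that held higher and for 254 that held lower. The AP-1 motif TGANTCA, searched on both strands, was in 5.24% of all these windows, in 3.63% of those of genes that held higher and in 4.72% of those that held lower. The E-box CACGTG was in 10.3%, 12.5% and 8.27%, and the cyclic AMP element TGACGTCA in 3.16%, 1.98% and 2.76%. The estrogen response element GGTCANNNTGACC was in 0 windows of genes that held and in 1 of the 7502. Probe sets with no symbol or several, 1300 above the filter, held about as often as named ones: 33 higher and 63 lower, 7.38% against 7.71%, and 0 with a margin of at least 0.25.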
